A study of Mus musculus with 4 samples.

Results

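The retinoid genes described here are 10 genes of vitamin A handling, chosen by name for their place in the pathway out of 50600 annotated genes. Earlier results of these data were known when they were chosen. They comprise the retinol transporter gene Stra6, the binding protein gene Crabp2, the enzyme genes Rdh10, Dhrs3 and Cyp26b1, and the nuclear receptor genes Rara, Rarb, Rarg, Rxra and Rxrb. They were measured by RNA-seq in 4 libraries that form 1 group, mouse regulatory T cells of strain C57BL/6NJ, given as primary cells and as biological replicates 1 to 4. The labels link a protocol for differentiating CD4 T cells, and names in the file headers carry the words activated and 72 h. The labels and file headers give neither the animals' number, sex or age nor whether retinoic acid was added to the cultures. No other group was present, so genes were compared with each other within libraries, and each gene's spread was measured between libraries.

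Vitamin A enters cells as retinol and is oxidised in sequence to retinal and to retinoic acid, the form that acts on transcription. Retinoic acid is carried by cellular binding proteins, binds a retinoic acid receptor (RAR) paired with a retinoid X receptor (RXR) on DNA, and is broken down by enzymes of the CYP26 family. In T cells, retinoic acid is known for inducing gut homing receptors and for favouring the induction of regulatory T cells by TGF-beta.

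Total counts on genes ranged from 51460018 to 121477975, a ratio of 2.36, and the detection floor of 3 counts was worth 0.0247 to 0.0583 CPM (counts scaled by the library total). This floor, the most that a gene with 0 counts may hold, covers counting error only. The marker lists of regulatory T cells (5 of 5 genes above the floor in every library) and of T cells (5 of 5) summed to between 3853 and 4381 TPM (counts divided by exon length, then brought to a fixed library sum) and between 3755 and 3984 TPM per library, with the interleukin 2 receptor gene Il2ra highest at 2168 TPM. In such bulk samples, fewer cells of a type and less RNA per cell cannot be told apart. Lists of B cell, dendritic cell, macrophage, stromal and epithelial, granulocyte and mast cell and CD8 T cell markers summed to between 0.346 and 6.03 TPM. Their highest members by mean TPM were Kit for granulocytes and mast cells (5.22), Zbtb46 for dendritic cells (4.51) and Eomes for CD8 T cells (3.34). For macrophages it was Adgre1 (2.55), for stromal and epithelial cells Krt18 (1.01) and for B cells Cd79a (0.676). Gzmk, Lyz2, Col3a1, Krt8, S100a8, S100a9 and Mpo had 0 counts. Xist, transcribed from an inactive X chromosome, stood at 173, 199, 0.592 and 0.758 TPM in replicates 1 to 4, and the Y-linked gene Eif2s3y at 0.0874, 0.133, 46.7 and 62.7 TPM, so replicates 1 and 2 differed from replicates 3 and 4 in sex-linked transcripts. High Xist with almost no Eif2s3y is the pattern of female cells, and the reverse is that of male cells. The 4 libraries thus did not all come from 1 animal. The labels carry 1 shared donor identifier and do not tie the replicates to separate animals. Libraries with the same pattern may be technical replicates, so p-values speak only of how these 4 libraries spread, part of which may be technical.

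The 10 genes were unevenly transcribed. Of the 10 genes, 8 reached 1 TPM in every library, while Rarb had no count in any library and Cyp26b1 was near the detection limit. Over all protein-coding genes, 48.9% reached 1 TPM in every library. Together the 10 genes summed to 666 ± 49.3 TPM (SD, n = 4), of which Stra6 alone made up 49.1% ± 2.61. The median of the 10 mean levels was 24.9 TPM, against 4.01 TPM over the 77 other genes of the pathway lists and 1.04 TPM over all protein-coding genes. Of those 77 genes, 55.8% reached 1 TPM in every library. The 10 genes and the lists were chosen with earlier results of these data known, so these contrasts in level are a description and not a test.

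**Figure D1:**
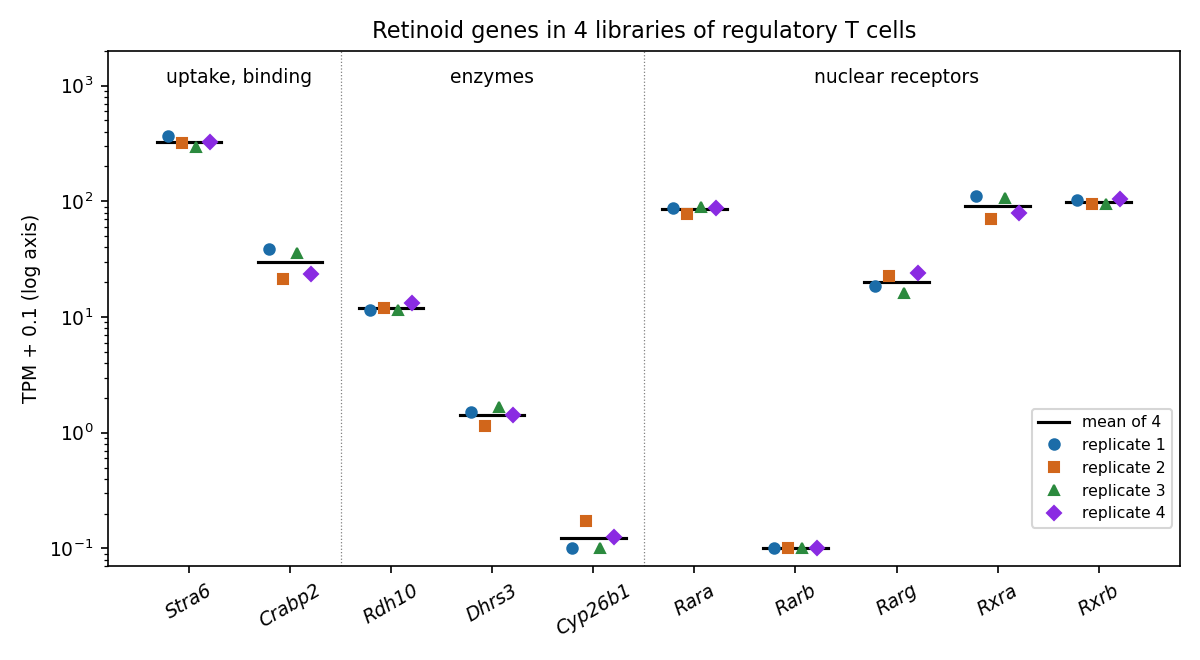
Level of each of the 10 genes in each of the 4 libraries, as TPM + 0.1 on a log axis, with a bar at the mean. Stra6 lies highest at 297 to 364 TPM, Rara, Rxra and Rxrb lie together between 69.6 and 111 TPM, and Rarb lies at 0 in every library.

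Stra6 encodes the membrane receptor that takes up retinol from circulating retinol-binding protein (ENSMUSG00000032327.14, mm10 chromosome 9, 58063788 to 58153996, plus strand). It was at 364, 321, 297 and 324 TPM in replicates 1 to 4, from 75903, 33848, 38138 and 28497 counts. The 4 libraries lay within a 1.23-fold range, and the mean of 327 ± 27.9 TPM (SD, n = 4) was above 97.8% of protein-coding genes. Its relative Stra6l, which encodes another receptor for the binding protein, had 0 counts in all libraries.

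Inside cells, CRABP2 carries retinoic acid to the nucleus and hands it to RAR. Crabp2 (chromosome 3, 87948666 to 87953376) was at 38.3, 21.1, 35.7 and 23.4 TPM in replicates 1 to 4, with replicates 1 and 3 above replicates 2 and 4. Crabp1, the gene of the other cellular retinoic acid-binding protein, had 0 counts in all 4 libraries, so Crabp2 was at least 94.2-fold higher in each library when Crabp1 was set to 3 counts per library. Fabp5, whose product can carry retinoic acid to the receptor PPAR-delta, was at 89.8 ± 6.91 TPM, and Crabp2 lay below it by a log2 difference of -1.64 ± 0.33 (SD, n = 4; log2 of TPM + 0.1, Crabp2 minus Fabp5). Stra6 exceeded Crabp2 by 3.50 ± 0.42 on the same scale. Each of these differences kept its direction in 4 of 4 libraries.

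Of the 14 genes listed for retinoid uptake and binding, 6 reached 1 TPM in every library and 5 had 0 counts throughout. The highest beside Stra6 and Crabp2 were Fabp5 and Scarb1, a lipoprotein receptor gene that also serves carotenoid uptake, at 44.7 ± 2.68 TPM (SD, n = 4).

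The enzymes that make and unmake retinal differed in level. Rdh10, which oxidises retinol to retinal (chromosome 1, 16105774 to 16133734), was at 11.4, 11.9, 11.5 and 13.1 TPM in replicates 1 to 4. Dhrs3, which reduces retinal back to retinol (chromosome 4, 144892827 to 144928209), was at 1.41, 1.04, 1.57 and 1.31 TPM, from 148, 55, 101 and 58 counts. Rdh10 lay above Dhrs3 in every library without overlap, by a log2 difference of 3.09 ± 0.28 (SD, n = 4).

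Other retinal reductases were higher than Dhrs3. All 6 genes listed for retinal reduction reached 1 TPM in every library, with a list median of 16.1 TPM, and Dhrs3 was the lowest of them. Rdh11, which reduces retinal and other aldehydes, was at 97.1 ± 7.80 TPM (SD, n = 4) and Dhrs4, another retinal reductase gene, at 61.6 ± 4.72 TPM. Dhrs3 minus Rdh11 was -6.09 ± 0.34 on the log2 scale. Among the 9 genes listed for retinol oxidation, 4 reached 1 TPM in every library, led by Adh5, better known for removing formaldehyde, at 86.1 ± 2.01 TPM, with Dhrs9 at 4.01 ± 0.616 TPM.

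Of the 4 aldehyde dehydrogenase genes listed for the last step from retinal to retinoic acid, 1 reached 1 TPM in every library. This was Aldh1a2, at 6.24, 8.09, 5.43 and 8.61 TPM in replicates 1 to 4, from 505, 331, 271 and 294 counts. Aldh8a1 averaged 0.0364 TPM, Aldh1a1 had 0 counts in all libraries, and Aldh1a3 had 5, 0, 3 and 3 counts. Aldh1a2 is also known from dendritic and stromal cells. Of the 4 dendritic cell markers 1 was above the floor in every library, and the list summed to 4.20 to 5.22 TPM. The dendritic cell marker Itgax had 6, 6, 8 and 2 counts and Flt3 5, 2, 3 and 2, while Zbtb46 stood at 4.51 TPM. Of the 5 stromal and epithelial markers 2 were above the floor in every library, and that list summed to 0.920 to 1.72 TPM. Of its members, Krt18 averaged 1.01 TPM, Col1a1 had 116, 28, 42 and 25 counts in replicates 1 to 4, Pdgfra had 0, 2, 3 and 0, and Col3a1 and Krt8 had none. The part of such cells in the level of Aldh1a2 was not tested.

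Breakdown of retinoic acid was represented by little RNA. Cyp26b1, which hydroxylates retinoic acid (chromosome 6, 84571414 to 84593908), had 0, 7, 0 and 2 counts in replicates 1 to 4, so it exceeded 3 counts only in replicate 2, at 0.0724 TPM. At this depth a difference between libraries was not detectable for it. Cyp26a1, the gene of the same family most closely tied to retinoic acid induction, was at 1.77, 1.62, 1.31 and 1.42 TPM, from 112, 52, 51 and 38 counts. The 4 values lay close together, with a coefficient of variation of 13.5%, and counting error alone corresponds to 13.6%. Cyp26c1 had 9, 1, 0 and 0 counts, and Cyp26a1 made up 96.2% ± 3.55 of the TPM of the 3 family members (SD, n = 4). Cyp26b1 minus Cyp26a1 was -3.74 ± 0.38 and Rdh10 minus Cyp26b1 6.64 ± 0.34 on the log2 scale. Both sizes are set by the pseudocount, since Cyp26b1 was at 0 in 2 libraries: with a pseudocount of 1 they were -1.30 and 3.66, and the SDs do not cover this.

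Among enzymes of retinyl ester storage and carotenoid cleavage, 2 of 8 genes reached 1 TPM in every library and 3 had 0 counts throughout, the storage enzyme gene Lrat among them. The 2 at this level were Lipe, a lipase that also cleaves retinyl esters, at 44.6 ± 1.4 TPM (SD, n = 4), and Dgat1, an acyltransferase that can esterify retinol, at 26.4 ± 1.45 TPM. Awat2, another acyltransferase gene, was above the floor in every library, with 55, 28, 60 and 31 counts.

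**Figure D2:**
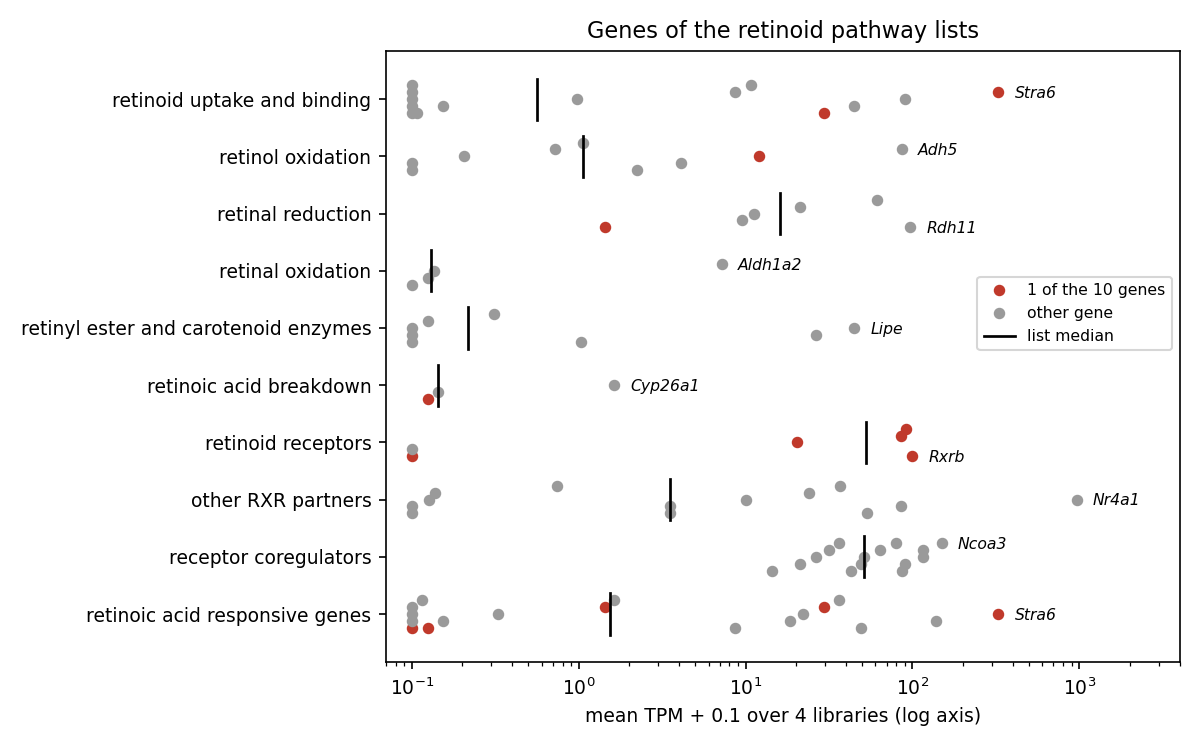
Mean level over 4 libraries of every gene in the 10 retinoid pathway lists, as TPM + 0.1 on a log axis, with the list median as a black line and the highest gene named. The 10 genes described here are red, and all 6 retinal reductase genes and all 15 coregulator genes lie at 1 TPM or more, while several lists hold genes at 0.

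Among the RARs, Rara dominated. Rara (chromosome 11, 98927818 to 98974942) was at 87.9, 77.3, 88.6 and 87.7 TPM in replicates 1 to 4, and Rarg (chromosome 15, 102234938 to 102257517) at 18.4, 22.5, 15.9 and 23.7 TPM. The values of the 2 genes did not overlap, and Rara made up 80.9% ± 3.41 of RAR transcripts per length (SD, n = 4). On the log2 scale Rara minus Rarg was 2.10 ± 0.32, in the same direction in 4 of 4 libraries. Rarb (chromosome 14, 16430842 to 16575472) had 0 counts in each library, which allows at most 0.0277, 0.0547, 0.0449 and 0.0656 TPM in replicates 1 to 4.

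The RXR partners were split nearly evenly between Rxra and Rxrb. Rxra (chromosome 2, 27676440 to 27762957) was at 111, 69.6, 106 and 79.9 TPM in replicates 1 to 4, and Rxrb (chromosome 17, 34031812 to 34038393) at 103, 94.4, 95.3 and 105 TPM. Rxra was the higher of the 2 in replicates 1 and 3, at 51.9% and 52.6% of RXR transcripts, and the lower in replicates 2 and 4, at 42.4% and 43.3%. The log2 difference of Rxra and Rxrb was -0.14 ± 0.32 (SD, n = 4; exact two-sided sign-flip p = 0.50, adjusted p = 0.538 over 14 pairs). It was 0.42 in CPM without length normalization, since Rxra has the longer exons (5462 against 3698 bases). Rxrg, the third RXR gene, had 0 counts in every library. All RXR transcripts together exceeded all RAR transcripts by 2.01, 1.64, 1.93 and 1.66 fold in replicates 1 to 4.

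Ordered by mean TPM, the receptor genes ran Rxrb (99.3 ± 5.17; SD, n = 4), Rxra (91.6 ± 20.0), Rara (85.4 ± 5.41) and Rarg (20.1 ± 3.61). Neighbours in the upper 3 did not separate beyond their spread: Rara minus Rxra was -0.08 ± 0.26 on the log2 scale, with Rara higher in 2 of 4 libraries (exact sign-flip p = 0.625, adjusted p = 0.625). Rara minus Rxrb was -0.22 ± 0.08, lower in 4 of 4 libraries, but was 0.02 in CPM without length normalization. Rara exceeded Vdr, the vitamin D receptor gene (36.8 ± 2.11 TPM), by 1.21 ± 0.14 and Ppard, the PPAR-delta gene (53.5 ± 2.83 TPM), by 0.67 ± 0.08. Of the 14 pairs compared, 12 kept their direction in 4 of 4 libraries. Each of these 12 had an exact p of 0.125, the smallest that 4 libraries allow, and 0.146 after Benjamini-Hochberg adjustment over the 14 pairs, so none could pass 0.05.

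**Figure D3:**
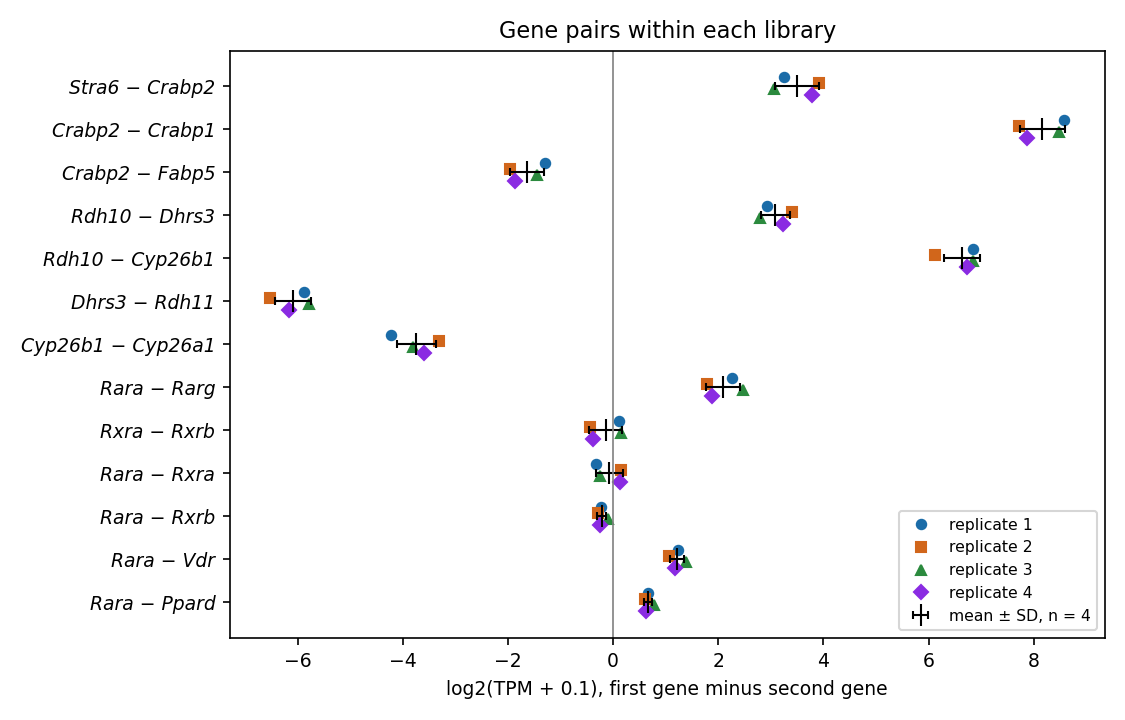
Difference of log2(TPM + 0.1) between the 2 genes of each pair shown, first minus second, in each of the 4 libraries, with the mean and SD. Rxra minus Rxrb and Rara minus Rxra have libraries on both sides of 0, while the other pairs shown lie on 1 side.

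Other receptors that pair with RXR and the proteins that receptors recruit were also measured. Of 13 other RXR partner genes, 8 reached 1 TPM in every library and 2 had 0 counts throughout. The highest were Nr4a1, an antigen receptor-induced orphan receptor gene, at 965 ± 117 TPM, and Nr1h2, a receptor gene for oxysterols, at 85.0 ± 8.45 TPM (SD, n = 4). All 15 listed coregulator genes reached 1 TPM in every library, with a median of 51.2 TPM. The coactivator gene Ncoa3 (150 ± 8.50 TPM) and Carm1, which methylates histones at receptor targets (116 ± 7.77 TPM), were the highest of them.

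Genes known from other settings to respond to retinoic acid did not share a level. Of 18 such genes, 10 reached 1 TPM in every library, 4 had 0 counts throughout, and the median was 1.43 TPM. Stra6 was the highest, followed by Itgb7, an integrin chain of gut homing, at 138 ± 9.38 TPM, and Nrip1, a receptor corepressor gene, at 48.9 ± 10.2 TPM (SD, n = 4). Rarb and Ccr9, a gut homing receptor gene, were among those with 0 counts. Many of these genes are known as responsive from other cell types, and retinoic acid itself was not measured.

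The promoter windows of Rarb, Cyp26a1 and Stra6 are shown because these genes span the range from 0 counts to the highest level among the responsive genes. Receptor pairs of RAR and RXR bind direct repeats of a hexamer, a word of 6 bases. RefSeq windows (GRCm38.p6, the assembly of mm10) of 300 bases, ending 50 bases after a transcription start, were found for 8 of the 10 genes, with 19 windows in all. They were searched on both strands for the words AGGTCA or AGTTCA or GGGTCA or GGTTCA and for pairs of these in direct repeat with 1, 2 or 5 bases between them. A hexamer stood in 6 of the 19 windows and in 43.7% of all 32851 windows. A direct repeat with 5 bases between stood in 1 of the 19 windows, that of Rarb, and in 0.0974% of all windows (32 of 32851). Repeats with 1 or 2 bases between were in none of the 19 windows, and in 0.222% and 0.268% of all windows. In the lines below, capitals mark the direct repeat with 5 bases between.
Rarb, chr14:16575427-16575726, minus strand: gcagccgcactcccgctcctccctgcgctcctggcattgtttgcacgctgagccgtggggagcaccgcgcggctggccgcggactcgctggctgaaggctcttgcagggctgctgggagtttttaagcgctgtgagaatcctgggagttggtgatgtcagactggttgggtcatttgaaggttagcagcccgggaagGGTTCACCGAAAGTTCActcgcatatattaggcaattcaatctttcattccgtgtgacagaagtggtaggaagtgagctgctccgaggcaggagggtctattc
Cyp26a1, chr19:37697558-37697857, plus strand: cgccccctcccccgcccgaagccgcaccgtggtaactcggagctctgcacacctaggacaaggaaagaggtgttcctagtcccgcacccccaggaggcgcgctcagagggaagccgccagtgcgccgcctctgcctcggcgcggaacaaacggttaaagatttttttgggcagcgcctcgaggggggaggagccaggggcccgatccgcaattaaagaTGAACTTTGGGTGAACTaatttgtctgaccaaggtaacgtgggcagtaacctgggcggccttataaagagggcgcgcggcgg
Stra6, chr9:58128838-58129137, plus strand: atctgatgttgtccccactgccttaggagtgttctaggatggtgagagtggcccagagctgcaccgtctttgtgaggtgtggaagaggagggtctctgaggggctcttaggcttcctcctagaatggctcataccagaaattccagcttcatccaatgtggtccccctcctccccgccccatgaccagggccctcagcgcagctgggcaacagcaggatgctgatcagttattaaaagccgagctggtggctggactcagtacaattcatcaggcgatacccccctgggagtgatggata

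The Rarb repeat began 53 bases before the start, and the Cyp26a1 repeat, which reads along the opposite strand, began 32 bases before it. The Rarb window overlaps the 5′ end of the gene as counted. The Stra6 window is the most upstream of 4 in the table, but it starts at 58128838, downstream of the start of the gene as counted at 58063788, which no window covers. Gene-level counts do not tell which start was used. Of the 4 Stra6 windows, 1 held a hexamer and none a direct repeat. Thus the repeat was present in the window of a gene with 0 counts (Rarb) and of a gene at 1.53 ± 0.206 TPM (Cyp26a1; SD, n = 4), and these letters were not in the 4 windows searched for Stra6 (327 TPM). A match is a description of the sequence, and binding was not measured. Of 31 genes with such a repeat in a window, 12 were protein-coding genes in the files, Rarb and Cyp26a1 among them. Of these 12, 2 reached 1 TPM in every library, of which Cyp26a1 was 1, against 51.9% of 16469 protein-coding genes with any window. The 12 thus include the genes just described, and the contrast was not tested.

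The spread between libraries was then tested for each gene against genes of like abundance. Of the 10 genes, 8 passed the filter on low counts, and Rarb and Cyp26b1 did not. Of these 8, 0 were called variable (edgeR quasi-likelihood dispersion test, adjusted p under 0.05), where 1 of 13625 tested genes, Xist, was called (0.00734%). Eif2s3y, with 13, 10, 4285 and 3933 counts in replicates 1 to 4, did not pass the filter and was not tested. Xist was thus the only gene called among those tested, not the only one that differed between libraries. At an unadjusted p under 0.05, 2 of the 8 were found, Rxra and Crabp2, against 4.7% of all tested genes. DESeq2 marked none of the 8 as a dispersion outlier, against 43 over all tested genes.

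Rxra stood 30th among the 13625 genes by p, with a dispersion 16.1 times its trended prior, and its edgeR adjusted p was 0.848 (0.00207 unadjusted). Its highest library was 1.59-fold above its lowest, a coefficient of variation of 21.8%, where counting error alone corresponds to 1.03%. Without the filter on low counts, which raised the number of tested genes to 23106 and of called genes to 98 (0.424%), Rxra was called (adjusted p = 0.00289). Crabp2 stood 120th, with an edgeR adjusted p of 0.965 (0.0118 unadjusted), a 1.82-fold range and a coefficient of variation of 29.2%, against 3.76% from counting. It was not called without the filter (adjusted p = 0.106).

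Rxra and Crabp2 were high in the same libraries, replicates 1 and 3, which also had the most total counts. Totals were 121477975 and 73690296 there, against 62472060 and 51460018 in replicates 2 and 4. The pattern was not particular to these genes. In TPM, Tnfrsf18 and Nr4a1 had the same order. Il2ra and Ncor1 instead had replicates 2 and 4 above replicates 1 and 3. How many genes had either pattern was not counted, and the part of sequencing depth was not tested. Relative to each gene's mean, Rxra deviated by 0.31, -0.41, 0.27 and -0.17 on the log2 scale of TMM-normalized CPM in replicates 1 to 4, and Crabp2 by 0.43, -0.48, 0.35 and -0.30. Rarg had the opposite signs, at -0.10, 0.14, -0.29 and 0.25. Rxrb and Rara stayed within a range of 0.18 and 0.27, Rdh10 within 0.20 and Stra6 within 0.27. Dhrs3 deviated by 0.11, -0.38, 0.28 and -0.01, a range of 0.66 with the highest values also in replicates 1 and 3, at a coefficient of variation of 16.6%, against 11.4% from counting.

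**Figure D4:**
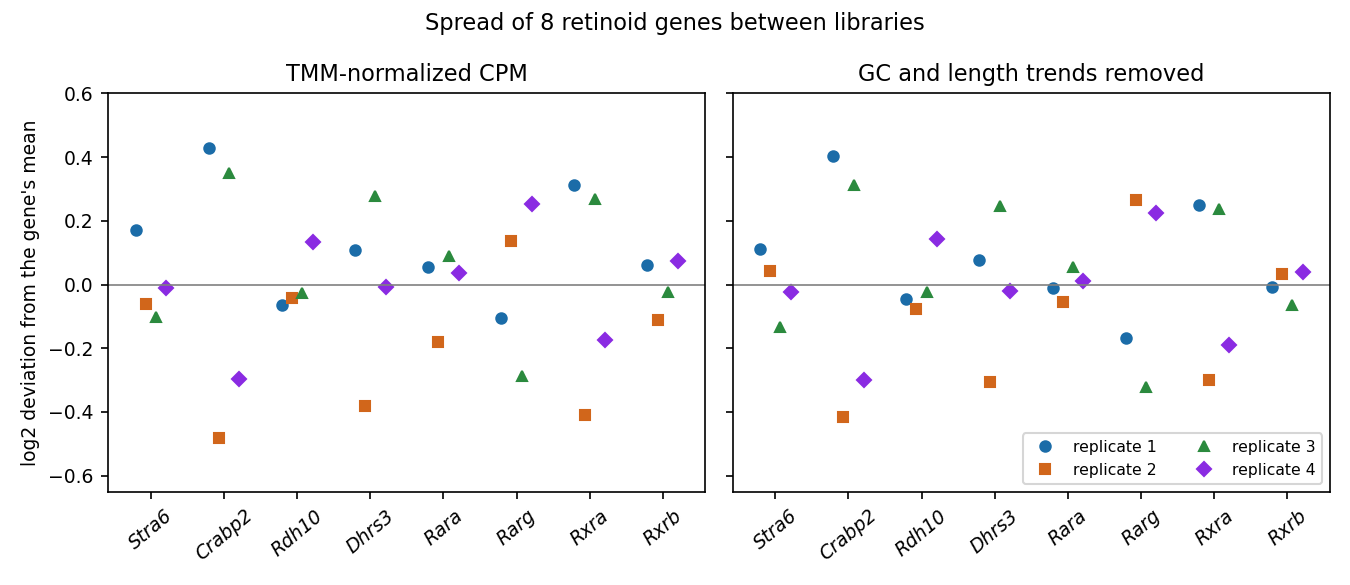
Log2 deviation of each library from the gene's own mean for the 8 genes that passed the filter, on TMM-normalized CPM (left) and after removal of GC and length trends per library (right). Rxra and Crabp2 are above 0 in replicates 1 and 3 and below 0 in replicates 2 and 4 in both panels, and Rarg has the opposite signs.

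Base composition also differed between the libraries. The 1361 tested genes of highest GC content deviated by a median of 0.07, -0.12, 0.04 and 0.03 on the log2 scale in replicates 1 to 4, and those of lowest GC content by -0.09, 0.18, -0.06 and -0.02. Once trends over GC content and length were removed per library, the range of Rxra was 0.55 in place of 0.72, that of Crabp2 0.82 in place of 0.91 and that of Rarg 0.59 in place of 0.54, and the signs of all 3 were kept. The range of Rara was 0.11 in place of 0.27. In that fit the unadjusted p was 0.00118 for Rxra, 0.0147 for Crabp2 and 0.0210 for Rarg, with adjusted p of 0.513, 0.925 and 0.925 (edgeR).

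Of the 77 other genes in the pathway lists, 48 were tested and 0 were called variable. At an unadjusted edgeR p under 0.05 there were 5 of the 48, against 641 of all 13625 tested genes (4.7%). Among the 5 were Nr4a1, Nrip1, Tgm2 and Itga4, named after their values were seen. Tgm2, a transglutaminase gene induced by retinoic acid in many cells, was at 23.7, 12.1, 19.6 and 17.7 TPM in replicates 1 to 4, lowest in replicate 2 like Rxra and Crabp2. Itga4, the integrin chain that pairs with the product of Itgb7, was at 19.1, 31.9, 16.7 and 19.9 TPM, highest in replicate 2. Both were called without the filter on low counts (edgeR adjusted p = 0.0345 and 0.000701) and neither with it. Their dispersion ratios were not larger without the filter, at 9.44 for Tgm2 and 16.9 for Itga4, against 11.7 and 17.1 with it.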

How the data were processed

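The authors deposited raw fragment counts per gene and each gene's merged exon length for 4 RNA-seq libraries. Per the file headers, counts came from featureCounts 1.4.6-p4 on paired fragments with both ends mapped, with strand setting 2, on GENCODE M13 exons. The sources used here do not name the aligner's version. The labels name total RNA but link a poly(A) library protocol.

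The 10 genes, the lists and the pairs were chosen with earlier results of these data known. Symbols came from a table matched by identifier, gene types from GENCODE M21 and promoter windows from RefSeq (GRCm38.p6), where Crabp2 and Rdh10 had none. No exon of the 10 genes overlapped an exon of another gene. Protein comparisons were not made.

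TPM was computed from counts and length. Percentiles rank mean TPM among 21764 protein-coding genes. Pairs were compared within each library on log2(TPM + 0.1), and exact sign-flip tests were two-sided. Spread was examined in R 4.3.3 with edgeR 4.0.16 (TMM, filterByExpr, intercept-only quasi-likelihood fit, robust prior with 6.54 degrees of freedom), as each gene's dispersion divided by the trended prior, with Benjamini-Hochberg adjustment over all tested genes, and the script was tested on simulated data. DESeq2 1.42.0, limma 3.58.1, other scalings, filters, pseudocounts and leaving out each replicate were alternatives. Removing GC and length trends was added after seeing the data. Named genes are the 10, those of the pairs, the 2 highest others of each list and the highest marker of each list, not all printed, and any other gene named was chosen after its values were seen. The values of 1 listed gene and its pair are not reported here. Python 3.11.15 was used.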

Additional observations from a re-analysis of the deposited data

Results flagged for a closer look

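In 3 of 75 genes tested for a library far from the other 3, 1 library stood apart, where chance gives about 1 in 20. Rara was lowest in replicate 2, at 77.3 TPM, against 87.7 to 88.6 TPM in the others. Its range between libraries was smaller once GC and length trends were removed, as given above. Rbp4, which encodes the carrier of retinol in blood, was highest in replicate 2 at 1.28 TPM, against 0.716 to 0.777 TPM in the others. This rests on 30 counts in replicate 2, against 36, 21 and 14 in replicates 1, 3 and 4, and counting error corresponds to a coefficient of variation of 21.2%, where 30.8% was measured. Med1, a Mediator subunit gene that receptors recruit, was highest in replicate 2 at 59.7 TPM, against 47.5 to 49.3 TPM. All 3 stood apart in replicate 2, and the cause was not tested. None was called in the edgeR test of spread against genes of like abundance, where the unadjusted p was 0.243 for Rara, 0.617 for Rbp4 and 0.187 for Med1, and the adjusted p 0.965, 0.999 and 0.965.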

How the results depend on the processing

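No paired analysis was possible because there was 1 group. Of 84 alternative values of the 14 pairs (a pseudocount of 1, no length normalization, each replicate left out), 81 kept their direction. Most of these outcomes were fixed in advance. Where a pair had 1 direction in every library, neither a pseudocount nor leaving out a replicate could reverse it. For such pairs only the values without length normalization could have changed direction, so the count of 81 is not a measure of robustness. Without length normalization, Rxra minus Rxrb was 0.42 and Rara minus Rxrb 0.0200, and with a replicate left out Rara minus Rxra was -0.153 to 0.00913, the upper value without replicate 1. Among mean levels of the 10 genes, 1 moved by more than its SD, that of Rxrb, which was 106 TPM with TPM over protein-coding genes only. The number of genes called variable was 98 without the filter on low counts, 1 to 18 with a replicate left out (2 without replicate 1, 18 without replicate 2) and 43 as DESeq2 dispersion outliers. Of the 10 genes, Rxra alone was called in any edgeR or limma alternative, without the filter. At 5 TPM, 2 genes of retinol oxidation and 0 of retinoic acid breakdown reached the threshold in every library. The cause of these changes was not tested. Depth limits Cyp26b1 and Rarb, whose levels lie at or near the floor.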
